A study of Mus musculus with 28 samples.

Results

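The microRNA (miRNA) mmu-miR-122-5p, the 5p arm of the liver miRNA miR-122, was followed in RNA from plasma extracellular vesicles (EVs) of mice. It was taken by its name as 1 of the 1240 miRNA entries (mature arms and precursors) in a table of 18710 non-coding RNA entries. The choice was made with earlier results of these data known. The table holds 28 small RNA libraries, 1 per mouse, in 4 groups: KlHET mice with neuromuscular electrical stimulation (KlHET NMES, n = 8), KlHET control mice (n = 8), WT mice with NMES (WT NMES, n = 6) and WT control mice (n = 6). KlHET mice carried 1 disrupted copy of Kl, the gene of the aging-related hormone KLOTHO, on the mixed strain background B6;129S5-Kltm1Lex/Mmucd, and all mice were 2 months old. NMES was given to the hind legs in 5 sessions at 9 mA, with 2 sets of 10 stimulations on each leg, under 2.5% isoflurane, while the control mice had isoflurane without current for 15 min. Plasma was collected 24 h after the last session from mice under Avertin anesthesia. In such bulk RNA, fewer EVs from a cell type and less of a miRNA per EV cannot be told apart.

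A miRNA is cut from a hairpin precursor and guides Argonaute proteins to partly complementary sites in messenger RNAs, mainly through its seed, the bases near its 5′ end, which lowers the stability and translation of those messages. miR-122-5p is the dominant miRNA of hepatocytes, where it is known for regulating cholesterol and lipid metabolism and for binding hepatitis C virus RNA. In blood it is widely used as a marker of liver injury, and it is carried in EVs as well as in protein complexes. Its 3p arm is largely degraded in hepatocytes.

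The miRNAs set beside miR-122-5p below are other miRNAs that are abundant in liver and those whose levels ran most like its own. Of 15 mature names looked up, 12 were found in RefSeq (GRCm38.p6), and 6 are shown because results turn on them, written 5′ to 3′ with the seed (bases 2 to 8) in capitals. The first of them, miR-148a-3p, is a liver-abundant miRNA that represses the DNA methyltransferase DNMT1. Mature miR-148a-3p lies at chr6:51269829-51269850 (minus strand), miR-192-5p, which is abundant in liver, gut and kidney, at chr19:6264857-6264877 (plus strand), and miR-22-3p, which is abundant in heart, muscle and liver, at chr11:75463772-75463793 (plus strand). miR-10a-5p (chr11:96317186-96317208, plus strand) and miR-10b-5p (chr2:74726074-74726096, plus strand) come from genes inside the Hox clusters, and miR-99b-5p (chr17:17830194-17830215, plus strand) comes from a cluster with let-7e and miR-125a.
miR-148a-3p: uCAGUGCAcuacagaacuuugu
miR-192-5p: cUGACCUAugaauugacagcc
miR-22-3p: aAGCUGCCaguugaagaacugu
miR-10a-5p: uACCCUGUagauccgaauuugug
miR-10b-5p: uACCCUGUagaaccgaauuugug
miR-99b-5p: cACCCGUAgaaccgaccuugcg
Of these, miR-10a-5p and miR-10b-5p share a seed and differ by the single substitution U12A, counted from the 5′ end of miR-10a-5p, so reads that do not cover that base cannot be assigned to either. No other pair among the 6 shares its seed.

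miR-122-5p was among the most counted miRNAs of plasma EVs in every group. It was counted in all 28 libraries, with 59 to 8201 counts, 32401 counts in all and a mean share of 4.49 ± 4.66% of the miRNA counts (SD, n = 28). By mean share over the 28 libraries it stood at rank 4 among all miRNA entries, below mir-5119 (12.3%), miR-5119 (8.72%) and miR-148a-3p (6.81%). Next below it was miR-486b-5p (3.61%), an erythroid and muscle miRNA. In KlHET mice, however, miR-122-5p lay below miR-486b-5p, at 2.31 against 3.37% in NMES and 2.35 against 2.65% in control mice. Among mature entries it was in the first 10 of 24 of the 28 libraries and first in 4 libraries, all of them WT. The totals behind these shares were 8992 to 96496 miRNA counts in libraries of 531261 to 3389206 counts.

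The share of miR-122-5p was lower in KlHET than in WT mice. Its lowest, median and highest shares were 0.393, 2.04 and 3.84% in KlHET NMES mice and 0.123, 2.68 and 3.93% in KlHET control mice. They were 2.68, 5.63 and 12.1% in WT NMES mice and 1.29, 4.43 and 21.9% in WT control mice. Of the 12 WT libraries 8 lay above the highest of the 16 KlHET shares, 3.93%, and the 5 highest shares were all WT. The genotypes overlapped, since 13 of the 16 KlHET shares exceeded the lowest WT share, that of WT control replicate 5. The mean shares were 2.31 ± 1.23% in KlHET NMES (SD, n = 8), 2.35 ± 1.44% in KlHET control (SD, n = 8), 6.70 ± 3.45% in WT NMES (SD, n = 6) and 8.01 ± 8.05% in WT control mice (SD, n = 6).

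**Figure D1:**
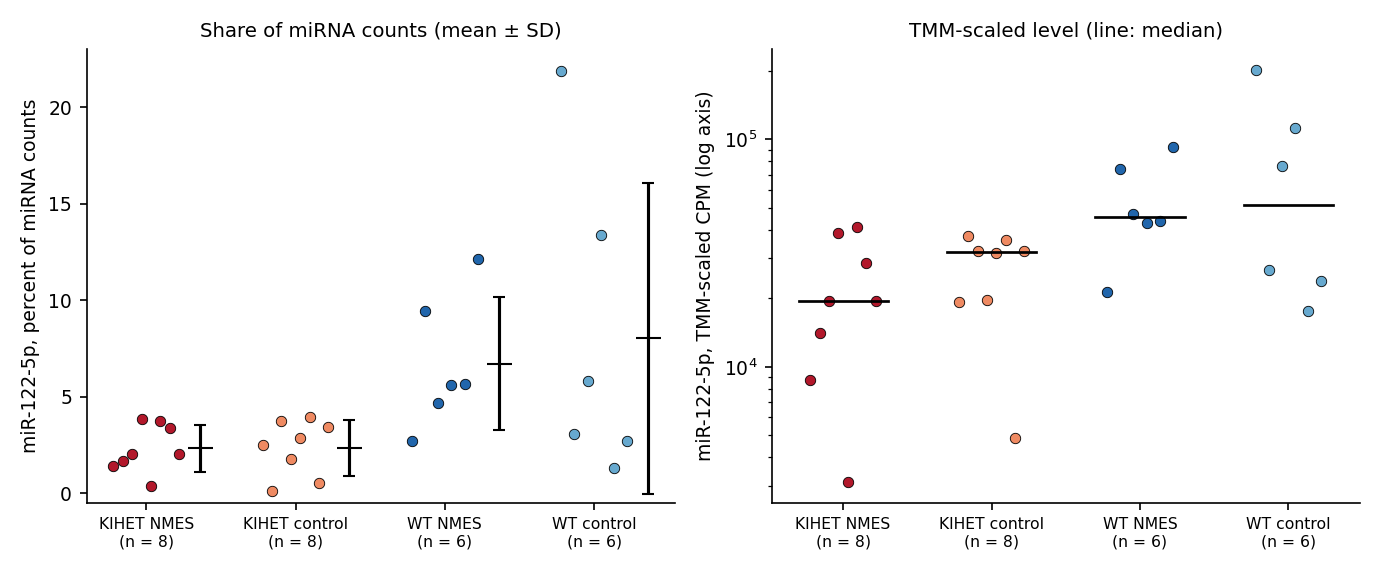
Each point is 1 library, by group. The left panel shows miR-122-5p as a percent of the miRNA counts with the mean ± SD of each group beside its points, and the right panel its TMM-scaled level (CPM) on a log axis with the group median as a line. On the left 8 of the 12 WT points lie above the highest of the 16 KlHET points, 3.93%, with WT control replicate 1 highest at 21.9%.

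These shares differed by far more than counting error. The 95% Wilson interval was 0.0986 to 0.152% for the lowest share, in KlHET control replicate 2, and 21.5 to 22.3% for the highest, in WT control replicate 1. The counting error of miR-122-5p was at most 13.0% of a library's count, in KlHET NMES replicate 5 with 59 counts, and its median was 4.19%. Intervals of this kind cover counting error only, because reads copied by PCR are not independent molecules. In the model fitted to all libraries, mice of the same group varied in miR-122-5p with a biological coefficient of variation of 68.3%. The median of that coefficient was 48.1% over the 20 entries nearest to it in level and 60.8% over all 129 entries tested.

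Some libraries stood apart in other entries. In KlHET control replicate 2 the entry miR-8117 took 65.7% of the miRNA counts. The share of miR-122-5p in that library was the lowest of all, at 0.123%, while its TMM-scaled level, 37480 CPM (counts scaled to a common library size), was the highest of the KlHET control group. TMM, a scaling of edgeR, compares libraries over the bulk of their entries and so discounts single dominant ones. The entries mir-5119, miR-5119 and mir-6240 also exceeded 20% of the miRNA counts in some libraries, with mir-6240 highest at 21.3% in KlHET control replicate 2. The share of mir-5119 averaged 16.6 ± 7.77% in KlHET NMES and 15.3 ± 10.3% in KlHET control mice (SD, n = 8 each). In WT NMES and WT control mice it averaged 7.94 ± 3.51% and 6.82 ± 2.50% (SD, n = 6 each). The 4 neuron-list miRNAs (miR-9-5p, miR-124-3p, miR-128-3p and miR-138-5p) summed to 5.53% in KlHET NMES replicate 5 and 11.5% in WT control replicate 5, against medians of 0.358% and 0.275% in those groups. Both libraries held the lowest share of miR-122-5p in their group, and the part of neuronal RNA in this was not tested. The skeletal muscle list (miR-1a-3p, miR-133a-3p, miR-133b-3p, miR-206-3p, miR-499-5p and miR-208b-3p) summed to 4.99% in KlHET control replicate 8 and 3.65% in WT control replicate 6. The medians of those groups were 0.388% and 0.678%. In KlHET control replicate 8 the most counted entry was miR-378a-3p, at 10.3% of miRNA counts.

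NMES and control mice were compared to ask whether stimulation changed the miRNAs carried by plasma EVs, and no difference in miR-122-5p passed the test. Its TMM-scaled level was lowest at 3114, median at 19562 and highest at 41352 CPM in KlHET NMES mice, against 4877, 32003 and 37480 CPM in KlHET control mice. In WT NMES mice these values were 21247, 45446 and 92917 CPM, against 17698, 51445 and 202238 CPM in WT control mice. The ranges of NMES and control mice overlapped in both genotypes.

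In the edgeR quasi-likelihood fit over 129 miRNA entries, the log2 difference of miR-122-5p, NMES minus control, was -0.40 over both genotypes (SE 0.38, 95% interval -1.18 to 0.37, adjusted p = 0.617). It was -0.51 in WT (SE 0.57, 95% interval -1.68 to 0.66, adjusted p = 0.701) and -0.30 in KlHET mice (SE 0.50, 95% interval -1.31 to 0.72, adjusted p = 0.978), both by edgeR. The intervals therefore still held differences of more than 2-fold downward in each genotype. The effect in KlHET minus that in WT was 0.21 (SE 0.76, edgeR adjusted p = 0.925), with a 95% interval of -1.34 to 1.76. WT control replicate 1 carried the WT value, which was 0.041 without that library.

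For NMES against control over both genotypes, edgeR called 0 of 129 entries (0%), with 22 at an unadjusted p under 0.05, and DESeq2 called 0. In WT mice edgeR likewise called 0 (0%), with 22 at an unadjusted p under 0.05, while DESeq2 called 4. Without WT control replicate 1 the WT count was 9 of 137, and with TMM factors from all RNA classes it was 13 of 129. In KlHET mice edgeR called 6 entries (4.65%), all lower in NMES mice, while DESeq2 called 1. With only the KlHET groups in the fit, edgeR called 0 of 97. In their effect between genotypes 3 entries (2.33%) differed by edgeR and 1 by DESeq2. miR-122-5p was in none of these counts.

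As a share of the miRNA counts, miR-122-5p gave small differences of the other sign. On the log2 scale NMES minus control was 0.25 over both genotypes (permutation test within genotypes, two-sided p = 0.618), 0.22 in WT (exact permutation test, p = 0.779) and 0.28 in KlHET mice (exact permutation test, p = 0.736), with an adjusted p of 0.779 each over 6 share tests. As the plot of shares by library shows, KlHET control replicate 2 and WT control replicate 5 pull their control groups down. Without these 2 libraries the differences were -0.21, -0.17 and -0.25 on the log2 scale. The sign of the NMES difference thus depended on the scaling and on these libraries.

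KlHET and WT mice differed in miR-122-5p, with the lower level in KlHET. Over both treatments its level was 2.66-fold lower in KlHET mice, a log2 difference of -1.41 (SE 0.38, 95% interval -2.18 to -0.64, edgeR adjusted p = 0.00645). On the TMM scale all 16 KlHET libraries were below the WT median of 45446 CPM, and 8 of the 12 WT libraries were above the highest KlHET library. In control mice alone the log2 difference was -1.52 (SE 0.54, 95% interval -2.61 to -0.43, edgeR adjusted p = 0.0362). In NMES mice it was -1.31 (SE 0.53, 95% interval -2.40 to -0.21), which did not pass the threshold (edgeR adjusted p = 0.156) although 5 of the 8 KlHET libraries lay below every WT one. The genotype differences of NMES and control mice differed from each other by 0.21, the same contrast as the difference of the NMES effects above.

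For KlHET against WT over both treatments, edgeR called 36 of 129 entries (27.9%), 18 higher and 18 lower in KlHET mice, and miR-122-5p ranked 16th by p. In control mice it called 32 entries (24.8%), 11 higher and 21 lower, with miR-122-5p at rank 29, and in NMES mice 4 entries (3.1%), all lower. Scaled by total miRNA counts alone, the same fit called 16 of 129 over both treatments, 14 in control mice and 3 in NMES mice. The median log2 difference of all 129 entries over both treatments was -0.08, and with TMM factors taken from all RNA classes it was -0.56. Relative to that median miR-122-5p lay at -1.33 with the first scaling and at -1.31 with the second.

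**Figure D2:**
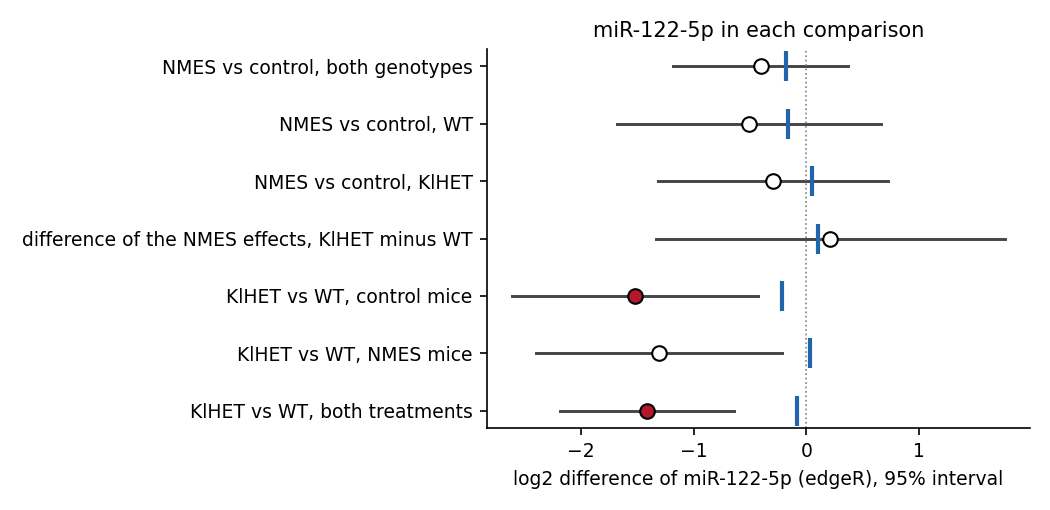
Points give the log2 difference of miR-122-5p in each of 7 edgeR comparisons and lines its 95% interval. Filled points passed an adjusted p of 0.05, and blue ticks mark the median of all 129 entries tested. The 3 comparisons of KlHET with WT lie between -1.52 and -1.31, while the 3 of NMES with control lie between -0.51 and -0.30 with intervals across 0.

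As a share of miRNA counts, KlHET minus WT was -1.66 on the log2 scale over both treatments (permutation test within treatments, two-sided p = 0.00178, adjusted p = 0.0107). It was -1.64 in NMES mice (exact permutation test, p = 0.00533, adjusted p = 0.016) and -1.69 in control mice (exact permutation test, p = 0.0876, adjusted p = 0.175). Against the miRNA counts without miR-122-5p and the 4 dominant entries, the difference over both treatments was -1.30, which no longer passed after adjustment (permutation test, p = 0.0103, adjusted p = 0.0617). The call in NMES mice was lost in the same way (-1.45, exact permutation test, adjusted p = 0.0719).

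The call over both treatments held in the edgeR fit without any single library, with log2 differences of -1.55 to -1.10. The call in control mice was lost without any 1 of 5 libraries. Without KlHET control replicates 1, 4 and 7 in turn, the log2 difference was -1.52, -1.50 and -1.36 (edgeR adjusted p = 0.0537, 0.0516 and 0.0575). Without WT control replicate 1 it was -0.97 (edgeR adjusted p = 0.176) and without WT control replicate 4 it was -1.38 (edgeR adjusted p = 0.0822). All WT libraries carry identifiers beginning with A and all KlHET libraries identifiers beginning with J. The labels state no batch, and genotype and anything else that goes with these identifiers cannot be told apart.

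Over both treatments, none of the other liver-list miRNAs tested was called lower in KlHET mice by edgeR with TMM factors from the miRNAs. The liver list held 8 miRNAs besides the products of miR-122, of which 7 had any count and 5 could be tested. Over both treatments 2 of the 5 were higher in KlHET mice, 0 were lower, and their median log2 difference was 0.80, beside -0.08 over all entries tested, of which 14% were called higher and 14% lower. miR-192-5p averaged 1.03 ± 0.565% of miRNA counts in KlHET NMES mice (SD, n = 8) and 0.733 ± 0.486% in KlHET control mice (SD, n = 8), against 0.595 ± 0.229% in WT NMES mice (SD, n = 6) and 0.368 ± 0.157% in WT control mice (SD, n = 6). Its log2 difference, KlHET minus WT, was 1.06 (SE 0.24, edgeR adjusted p = 0.00188). miR-22-3p was also higher, at 0.83 (SE 0.30, edgeR adjusted p = 0.0354), but this call was lost without any 1 of 13 of the 28 libraries. They were KlHET NMES replicates 2, 4 and 6, KlHET control replicates 5 and 6, WT NMES replicates 3, 4 and 6, and WT control replicates 1, 3, 4, 5 and 6. Over all single left-out libraries the difference of miR-22-3p ran from 0.63 to 1.11, with an edgeR adjusted p of at most 0.088.

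The remaining members of the liver list gave no call. miR-148a-3p, the most counted of them, averaged 8.69 ± 2.04% in KlHET NMES mice (SD, n = 8) and 5.36 ± 3.59% in KlHET control mice (SD, n = 8), against 6.34 ± 2.93% in WT NMES mice (SD, n = 6) and 6.68 ± 2.79% in WT control mice (SD, n = 6). Its log2 difference was 0.19 (SE 0.27, edgeR adjusted p = 0.652). In control mice miR-148a-3p stood at -0.25 (edgeR adjusted p = 0.648), but with TMM factors from all RNA classes it was called lower in KlHET mice, at -1.14 (edgeR adjusted p = 0.034), where the median of all entries was -0.97. miR-194-5p, which is made from a cluster with miR-192, stood at 0.80 (SE 0.48, edgeR adjusted p = 0.223) and miR-101a-3p, which targets the histone methyltransferase EZH2, at -0.24 (SE 0.40, edgeR adjusted p = 0.721). miR-802-5p, another hepatocyte miRNA, had 7 counts in 1 library and miR-802-3p had 0. The rises of miR-192-5p and miR-22-3p depended on scaling: with TMM factors from all RNA classes they were 0.47 (edgeR adjusted p = 0.194) and 0.40 (edgeR adjusted p = 0.338), and scaled by total miRNA counts 0.90 (edgeR adjusted p = 0.109) and 0.68 (edgeR adjusted p = 0.284), whereas miR-122-5p was lower and called in each of these. Without a filter on low counts both calls were lost as well (edgeR adjusted p = 0.16 and 0.37).

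**Figure D3:**
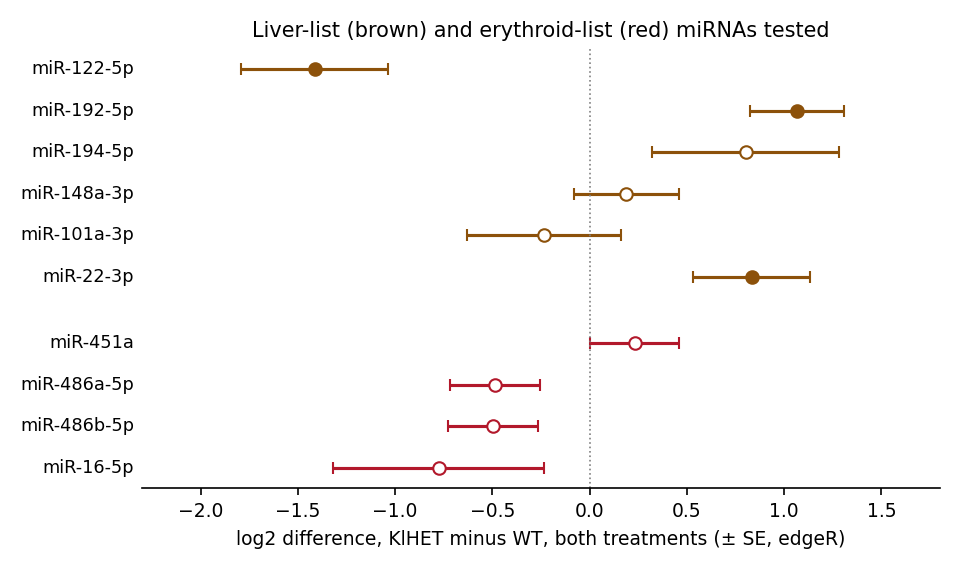
Points give the log2 difference, KlHET minus WT over both treatments, with its SE for the liver-list miRNAs (brown) and erythroid-list miRNAs (red) that were tested, and filled points passed an adjusted p of 0.05 in edgeR. miR-122-5p stands at -1.41, while miR-192-5p and miR-22-3p stand at 1.06 and 0.83.

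The ratio of miR-122-5p to the summed counts of the other liver-list miRNAs is free of the library's scaling. Most of that sum was miR-148a-3p, which averaged 6.81% of miRNA counts against 7.94% for the sum. The ratio thus mainly compares miR-122-5p with miR-148a-3p. A higher sum lowers it just as a lower miR-122-5p does. The sum averaged 10.3 ± 2.32% of miRNA counts in KlHET NMES and 6.53 ± 4.22% in KlHET control mice (SD, n = 8 each). It averaged 7.29 ± 3.04% in WT NMES and 7.38 ± 2.77% in WT control mice (SD, n = 6 each). How much of the group differences in the ratio lay in the sum was not tested. The lowest, median and highest ratios were 0.067, 0.196 and 0.403 in KlHET NMES mice and 0.232, 0.339 and 0.806 in KlHET control mice. They were 0.449, 0.937 and 1.82 in WT NMES mice and 0.262, 0.577 and 3.20 in WT control mice. Among NMES mice every KlHET ratio lay below every WT ratio, whereas the control mice of the genotypes overlapped.

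KlHET minus WT, the log2 ratio was -2.19 in NMES mice (exact permutation test, two-sided p = 0.000999, adjusted p = 0.003) and -1.04 in control mice (exact permutation test, p = 0.0556, adjusted p = 0.111). Over both treatments it was -1.61 (permutation test within treatments, p = 7.0e-05, adjusted p = 0.00042), a 3.06-fold lower ratio. With miR-148a-3p taken out of the list the log2 ratio over both treatments was -2.17. The ratio in control mice passed without WT control replicate 5 (-1.34, exact permutation test, adjusted p = 0.0249), without KlHET control replicate 8 (-1.21, adjusted p = 0.035) and with miR-148a-3p taken out of the list (-2.01, adjusted p = 0.00266), while without WT control replicate 1 it was -0.62 (adjusted p = 0.23). These genotype tests of ratios were chosen after the values were seen. NMES minus control, the log2 ratio was -0.90 in KlHET mice (exact permutation test, p = 0.0337), which did not pass over the 6 ratio tests (adjusted p = 0.202), and 0.25 in WT mice (exact permutation test, p = 0.697).

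**Figure D4:**
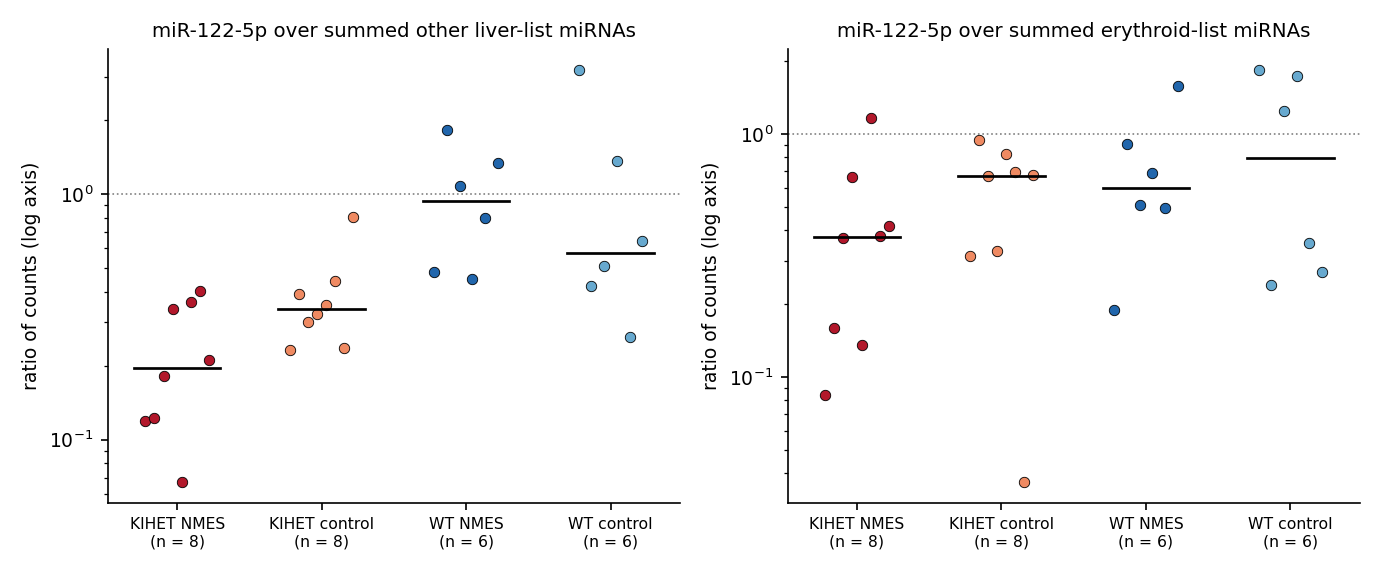
Each point is 1 library and each line the group median, on log axes. The left panel shows miR-122-5p counts over the summed counts of the other liver-list miRNAs, and the right panel over those of the erythroid-list miRNAs. On the left the highest KlHET NMES ratio, 0.403, is below the lowest WT NMES ratio, 0.449, while on the right all groups overlap.

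Against the summed erythroid-list miRNAs the genotype difference of miR-122-5p was smaller. The erythroid list (miR-451a, miR-486a-5p, miR-486b-5p, miR-144-3p, miR-144-5p and miR-16-5p) was detected with all 6 members. Its sum averaged 7.75% of miRNA counts over the 28 libraries, mostly miR-486b-5p (3.61%) and miR-486a-5p (3.56%), with miR-451a at 0.530%. The smaller difference therefore holds for this sum and not for each member. The list summed to 2.91 to 16.7% of miRNA counts in KlHET NMES mice and 0.130 to 13.8% in KlHET control mice. The sums were 7.72 to 14.3% in WT NMES mice and 3.63 to 12.9% in WT control mice. Of its 4 members tested, edgeR and DESeq2 called 0 over both treatments, with 2 at an unadjusted p under 0.05 in edgeR, beside 36 of 129 entries called (27.9%) and 51 at an unadjusted p under 0.05. miR-451a, an abundant red cell miRNA, stood at 0.23 (SE 0.23, edgeR adjusted p = 0.501) and miR-16-5p at -0.78 (SE 0.54, edgeR adjusted p = 0.324). In control mice miR-451a was at 0.67 (SE 0.33, edgeR adjusted p = 0.129). miR-486a-5p and miR-486b-5p stood at -0.49 (SE 0.23, edgeR adjusted p = 0.117) and -0.50 (SE 0.23, edgeR adjusted p = 0.114). Without KlHET control replicate 7 both were called lower in KlHET mice, at -0.62 each (edgeR adjusted p = 0.0267 each). These 2 miRNAs are nearly identical and their reads may be shared between the entries.

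The log2 ratio of miR-122-5p to the erythroid list, KlHET minus WT, was -0.82 over both treatments and did not pass (permutation test within treatments, two-sided p = 0.112, adjusted p = 0.168). The count of miR-451a over miR-23a-3p, a measure of red cell lysis in plasma, had medians of 1.44 in KlHET NMES and 2.09 in KlHET control mice, against 2.99 in WT NMES and 2.14 in WT control mice. Whether red cell RNA had a part in the genotype difference of miR-122-5p was not tested.

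The lists for other cell types had few members that could be tested: 2 of 6 for leukocytes and platelets, 2 of 6 for skeletal muscle, 2 of 4 for neurons and 1 of 2 for the endothelium. Over both treatments edgeR called 0 of the first 6 miRNAs, before adjustment as well, beside 27.9% of all entries. DESeq2 called 0 of the 4 leukocyte, platelet and muscle miRNAs and gave no adjusted p for the neuronal ones. The neuronal pair was called lower by edgeR in KlHET control than in WT control mice, miR-9-5p at -4.66 (edgeR adjusted p = 0.0103) and miR-128-3p at -3.17 (edgeR adjusted p = 0.0102). Without the neuron-rich WT control replicate 5 these were -0.51 and 0.26 (edgeR adjusted p = 0.763 and 0.777). Both also differed in their NMES effects between genotypes (edgeR adjusted p = 0.0275 and 0.0318). This was lost without that library (edgeR adjusted p = 0.271 and 0.477) and without KlHET NMES replicate 5 (0.11 each). Without WT NMES replicate 3, 4, 5 or 6, each left out alone, these calls were lost as well, with 0 entries called. The endothelial miR-126a-3p was lower over both treatments in KlHET mice, at -0.67 (SE 0.19, edgeR adjusted p = 0.00789), but not with TMMwsp, a TMM scaling for sparse counts (-0.35, edgeR adjusted p = 0.208), with total miRNA counts as the scale (-0.80, edgeR adjusted p = 0.118) or with no filter on low counts (-0.77, edgeR adjusted p = 0.314).

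Nearly all reads of miR-122 came from its 5p arm. The 3p arm had 2 counts, both in the single library KlHET control replicate 5, which is 0.00617% of the counts of both arms (95% exact interval 0.000747 to 0.0223%). The precursor entry mir-122 had 194 counts in 23 of the 28 libraries, or 0.599 per 100 counts of the 5p arm, and was too low to be tested. It stood at 0.327 per 100 in KlHET NMES (11 counts) and 0.614 per 100 in KlHET control mice (28 counts). In WT NMES it was 0.603 per 100 (50 counts) and in WT control mice 0.649 per 100 (105 counts). A single library held 17 of the KlHET control counts and another 59 of the WT control counts. With so few counts these rates are imprecise, and whether they differ was not tested. The gene Mir122 lies on chromosome 18 at positions 65248861 to 65248926 of GRCm38.p6, on the plus strand. In GENCODE vM21 it falls within an exon (65245359 to 65252621) of the long non-coding RNA gene AC157910.3, and RefSeq also places Mir122b at 65248863 to 65248921.

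The miRNAs whose TMM-scaled levels ran most like miR-122-5p were not the liver ones. Over the 28 libraries the highest Pearson r on the log2 scale among 128 other entries belonged to miR-10a-5p (r = 0.61, Spearman rho = 0.59), miR-10b-5p (r = 0.56, rho = 0.49) and miR-99b-5p (r = 0.53, rho = 0.42), followed by mir-140 (0.49) and miR-143-3p (0.48), a smooth muscle miRNA. The entries were picked for these values, so no p is given with them. In contrast, r was 0.04 for miR-192-5p, 0.32 for miR-148a-3p and -0.23 for miR-451a, and the median over all 128 entries was 0.00144.

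Much of this likeness lay between the groups. miR-10a-5p averaged 0.778 ± 0.214% of miRNA counts in KlHET NMES mice (SD, n = 8) and 0.732 ± 0.433% in KlHET control mice (SD, n = 8), against 4.02 ± 1.25% in WT NMES mice (SD, n = 6) and 3.91 ± 1.52% in WT control mice (SD, n = 6). Its log2 difference, KlHET minus WT, was -2.22 (SE 0.19, edgeR adjusted p = 1.1e-10), and that of miR-10b-5p was -2.35 (SE 0.19, edgeR adjusted p = 6.08e-11). With each library set against its group mean, r fell to 0.36 for miR-10a-5p, 0.17 for miR-10b-5p and 0.28 for miR-99b-5p. Within groups r of miR-10a-5p was 0.53 in KlHET NMES, 0.31 in KlHET control, -0.41 in WT NMES and 0.64 in WT control mice.

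At the other end were miR-328-3p (r = -0.57, rho = -0.64), miR-1981-5p (r = -0.49, rho = -0.34) and miR-26b-5p (r = -0.48, rho = -0.57), followed by miR-326-3p (-0.47) and miR-423-3p (-0.41). With each library set against its group mean, r of miR-328-3p was -0.51. Within groups it was -0.72 in KlHET NMES, -0.62 in KlHET control, 0.10 in WT NMES and -0.75 in WT control mice. With 6 to 8 libraries per group such values are imprecise, and whether the groups differ in r was not tested. miR-328-3p was higher in KlHET mice, with a log2 difference of 1.71 (SE 0.38, edgeR adjusted p = 0.00158). It averaged 0.218 ± 0.131% in KlHET NMES and 0.505 ± 0.535% in KlHET control mice (SD, n = 8 each), against 0.119 ± 0.0919% in WT NMES and 0.088 ± 0.0342% in WT control mice (SD, n = 6 each). By treatment, its difference was called in control mice (2.50, edgeR adjusted p = 0.00175) but not in NMES mice (0.93, edgeR adjusted p = 0.337). KlHET control replicates 7 and 8 held high levels of miR-328-3p, 13.8 and 13.5 log2 CPM. The call over both treatments held without each single library (1.52 to 2.03).

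**Figure D5:**
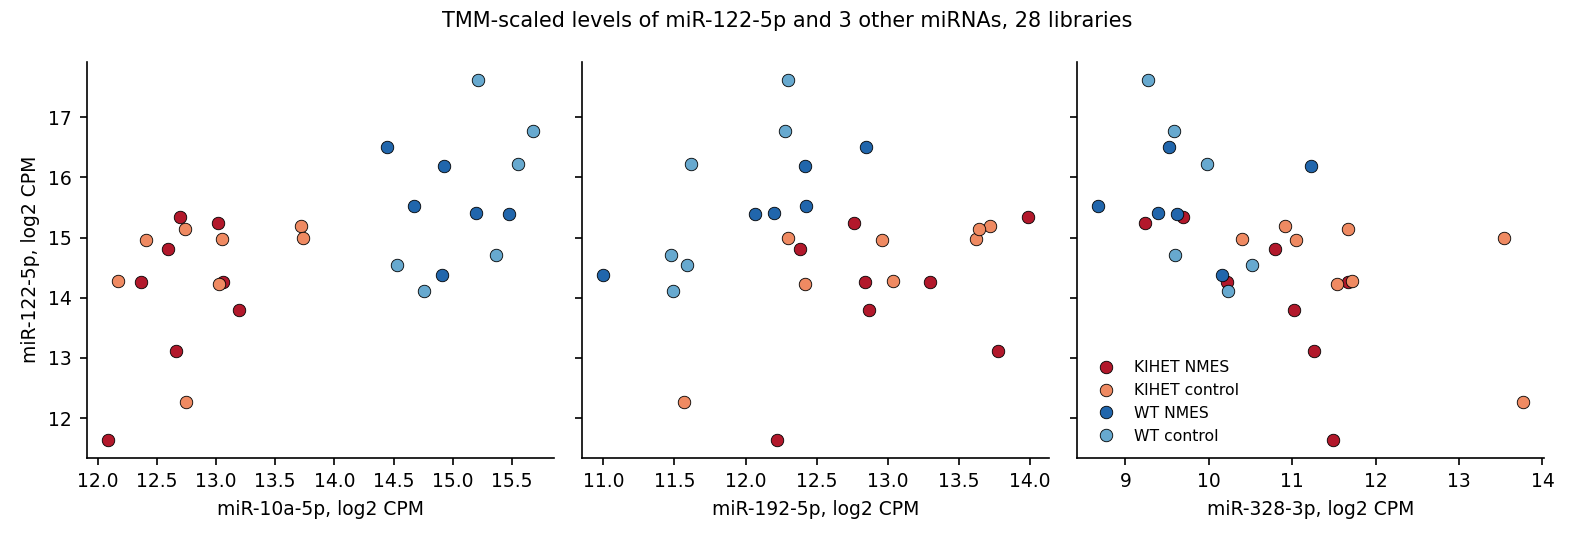
Each point is 1 library and the axes give TMM-scaled levels in log2 CPM, miR-122-5p on the vertical axis and miR-10a-5p, miR-192-5p and miR-328-3p on the horizontal axes. On the left the KlHET and WT libraries form separate clouds along miR-10a-5p, in the middle r is 0.04, and on the right levels run oppositely with r = -0.57.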

How the data were processed

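Small RNA of plasma EVs was sequenced from 28 mice, with 1 library per mouse, as single-end reads. The authors aligned them with STAR 2.5.3a to mm10 and counted them with COMPSRA, and the deposited values are raw counts per entry. The annotation source, adapter trimming and treatment of reads with several places are not given in the sources used here. Sample columns left out numbered 0.

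Groups came from the labels, and replicate numbers follow accession order. The 1240 miRNA entries were filtered with filterByExpr, scaled with TMM and fitted with edgeR 4.0.16 (R 4.3.3, quasi-likelihood, 1 mean per group, 28 libraries), with Benjamini-Hochberg adjustment over 129 entries and a threshold of 0.05. The study's tool, DESeq2, was an alternative (1.42.0). Log2 shares and ratios were compared with two-sided permutation tests, exact or with 100000 resamples. Correlations used log2 CPM with a prior count of 2. Alternatives were other scalings, filters, entries, DESeq2 and left-out libraries. The edgeR step was tested on simulated data. The members, marker lists and tests were chosen with earlier results of these data known. Named miRNAs were the products of miR-122, the liver list, the neighbours in mean share, entries over 20% of a library, the 5 with the highest and the 5 with the lowest r, miR-451a and miR-23a-3p. The miRNAs of the other lists that are named were singled out after their values were seen. Only separate mice were replicates, so p-values weigh a difference between groups against the spread between mice.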

Additional observations from a re-analysis of the deposited data

Results flagged for a closer look

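Values far from the rest of their group were looked for in 28 sets of values, 7 measures in 4 groups, of which chance flags about 1 in 20. The count of miR-122-5p in WT NMES replicate 6, 3105, stood far above the next highest of that group, 1504. KlHET control replicate 8 stood apart in 3 measures. Its count of miR-122-5p was 2050, against 565 as the next highest. Its share of all library counts was 0.142%, against 0.0684%, and its ratio to the other liver-list miRNAs was 0.806, against 0.443. As a share of miRNA counts the same library, at 3.42%, lay inside the range of its group.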

How the results depend on the processing

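The lower miR-122-5p of KlHET mice over both treatments kept its direction and its call under all 10 other settings of the fit (log2 -1.87 to -1.22) and without each of the 28 libraries (-1.55 to -1.10). In control mice alone the call was lost with mature arms only (-1.40), with only the groups compared (-1.50), with TMMwsp (-1.37) and with total miRNA counts (-1.74), and without any 1 of 5 libraries, KlHET control replicates 1, 4 and 7 and WT control replicates 1 and 4 (-1.72 to -0.97 over all single left-out libraries). Against miRNA counts without dominant entries, the share differences lost their call over both treatments (-1.30) and in NMES mice (-1.45).

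The NMES differences were uncalled throughout, and their sign was not stable. Without single libraries, the edgeR value ran from -0.67 to 0.041 in WT, and the difference of the effects from -0.26 to 0.47. The log2 share difference ran from -0.011 to 0.46 over both genotypes, -0.17 to 0.64 in WT and -0.25 to 0.61 in KlHET mice. Without KlHET control replicate 2 and WT control replicate 5 it was -0.21, -0.17 and -0.25. Of all library counts it was -0.13 over both genotypes and -0.46 in WT. In KlHET mice it was -0.056 without dominant entries. In percentage points of the share it was -0.68 over both, -1.32 in WT and -0.040 in KlHET mice. In WT mice the log2 ratio to the liver list ran from -0.049 to 0.67 without single libraries, was -0.28 without its most counted member and -0.049 without both libraries above, and the ratio to the erythroid list ran from -0.46 to 0.18.

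Among other miRNAs, KlHET minus WT turned sign with TMM over all RNA classes for miR-148a-3p (-0.40) and miR-26b-5p (-0.12), and for miR-22-3p in control mice (-0.12). For miR-101a-3p it was 0.048 with TMMwsp and -0.41 to 0.035 without single libraries, and for miR-148a-3p in control mice -0.36 to 0.16, though with TMM over all RNA classes it was called there at -1.14. Counts of called entries moved too. KlHET against WT called 36 over both treatments and 16 with total miRNA counts. In control mice it called 32, but 14 with total miRNA counts, 20 with only the groups compared and 20 without KlHET control replicate 2 and WT control replicate 5, and in NMES mice 4, but 7 with DESeq2 and 9 without those libraries. NMES against control called 0 in WT, but 13 with TMM over all RNA classes, 19 without a filter and 9 without WT control replicate 1. In KlHET mice it called 6, but 0 with total miRNA counts, 20 without a filter and 0 without KlHET NMES replicate 5. Over both genotypes it called 0, but 14 without a filter. For the difference of the effects the count was 3, but 29 without a filter, 1 with DESeq2 and 1 with total miRNA counts. That count fell to 0 without KlHET NMES replicate 5, WT control replicate 5 or WT NMES replicate 3, 4, 5 or 6, each left out alone. The causes were not tested. No paired analysis was possible because no label ties mice of different groups. Depth limits the 3p arm, the precursor and miR-802, which were too low to test, and with 6 to 8 mice per group the intervals for NMES remained wide.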
